A study of Mus musculus with 6 samples.

Results

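The 9 genes described here encode the hemidesmosome of basal keratinocytes and its ligand, laminin-332: Itga6, Itgb4 and Itga3 (integrin chains), Cd151 (a tetraspanin), Col17a1 (collagen XVII), Dst and Plec (plakins), and Lama3 and Lamb3 (laminin chains). They were found as all probes whose symbol in the platform annotation is one of these 9, which gave 36 of the 46116 probes on the array, and 9 of 17658 annotated genes. Transcript levels were compared between papillomas, benign skin tumours, of Atf2 knockout and Atf2 wild-type mice. Both groups were mice of mixed FVB and C57bl6 background, given a single dose of the mutagen DMBA and then the promoter TPA for 30 weeks, and bore papillomas at about 9 months of age. Papilloma RNA of 3 knockout mice made up 1 pool and that of 2 wild-type mice the other, and each pool was put on 3 Illumina bead arrays. The labels do not say how the knockout allele was made or in which cells Atf2 was lost.

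Hemidesmosomes rivet the basal layer of the epidermis to its basement membrane. Integrin α6β4 spans the membrane and binds laminin-332 outside the cell, collagen XVII and CD151 stand beside it, and the plakins dystonin and plectin tie it to the keratin filaments within. Integrin α3β1 binds the same laminin outside hemidesmosomes. In the skin, loss of any of several of these proteins causes blistering, and α6β4 is known for its raised expression in squamous tumours of mouse skin.

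A pool is 1 sample, and its 3 arrays are technical replicates. Each SD, SE and p-value below therefore measures technical spread and not the spread between mice, and the difference between pools has no replicate check of the genotype. Raw intensity is given as deposited, on a linear scale. It includes each array's background, and knockout arrays were dimmer as a whole (median raw intensity 109.9 to 135.5, against 135.8 to 148.2 on the wild-type arrays), with knockout array 3 the dimmest. Log2 differences are taken as knockout minus wild type, after background correction and quantile normalization, and can differ from the ratio of raw values for that reason. A probe was tested if its mean signal lay above the median of all probes, and passed the threshold with a limma adjusted p (Benjamini-Hochberg over 23058 tested probes) under 0.05 and a difference of at least 2-fold. A probe was called above background on an array when it exceeded the most common intensity there by 3 SDs of the background. In RNA from whole tumours, fewer cells of a type and less RNA per cell cannot be told apart.

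The targeted gene could not check the labels. Of 4 Atf2 probes, 3 were above background on no array, and the remaining one (2260348) read 171.0, 133.2 and 103.0 on the knockout arrays and 184.5, 176.2 and 186.3 on the wild-type arrays, with a log2 difference of -0.28 (limma adjusted p = 0.109). Normalized arrays correlated at 0.987 to 0.994 within a pool and at 0.961 to 0.964 between pools.

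Of the 36 member probes, 14 were above background on all 6 arrays, 15 on none and 7 on some, and 26 were tested. Of the 26, 2 were higher in the knockout pool past the threshold, where 0.984% of all tested probes were, and 2 were lower, where 3.90% were. The probes that were higher were both in Itga6, and those that were lower were in Col17a1 and Cd151. The median log2 difference of the 26 probes was -0.003, beside 0.05 for all tested probes. Among probes above background on all 6 arrays, the median was -0.09 for the 14 member probes and 0.11 for all such probes. On the brightest tested probe of each gene, 0 of 9 genes passed the threshold, with log2 differences from -0.89 (Dst) to 0.24 (Itga6) and a median of -0.13. At an unadjusted p under 0.05 in limma, 2 of these 9 were higher and 1 was lower. Of all tested probes, at least 20.9% were higher and at least 17.6% lower at that limit, the shares by adjusted p. By adjusted p alone, without the fold limit, 3 of the 26 probes were higher (20.9% of all tested probes) and 5 lower (17.6%).

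**Figure D1:**
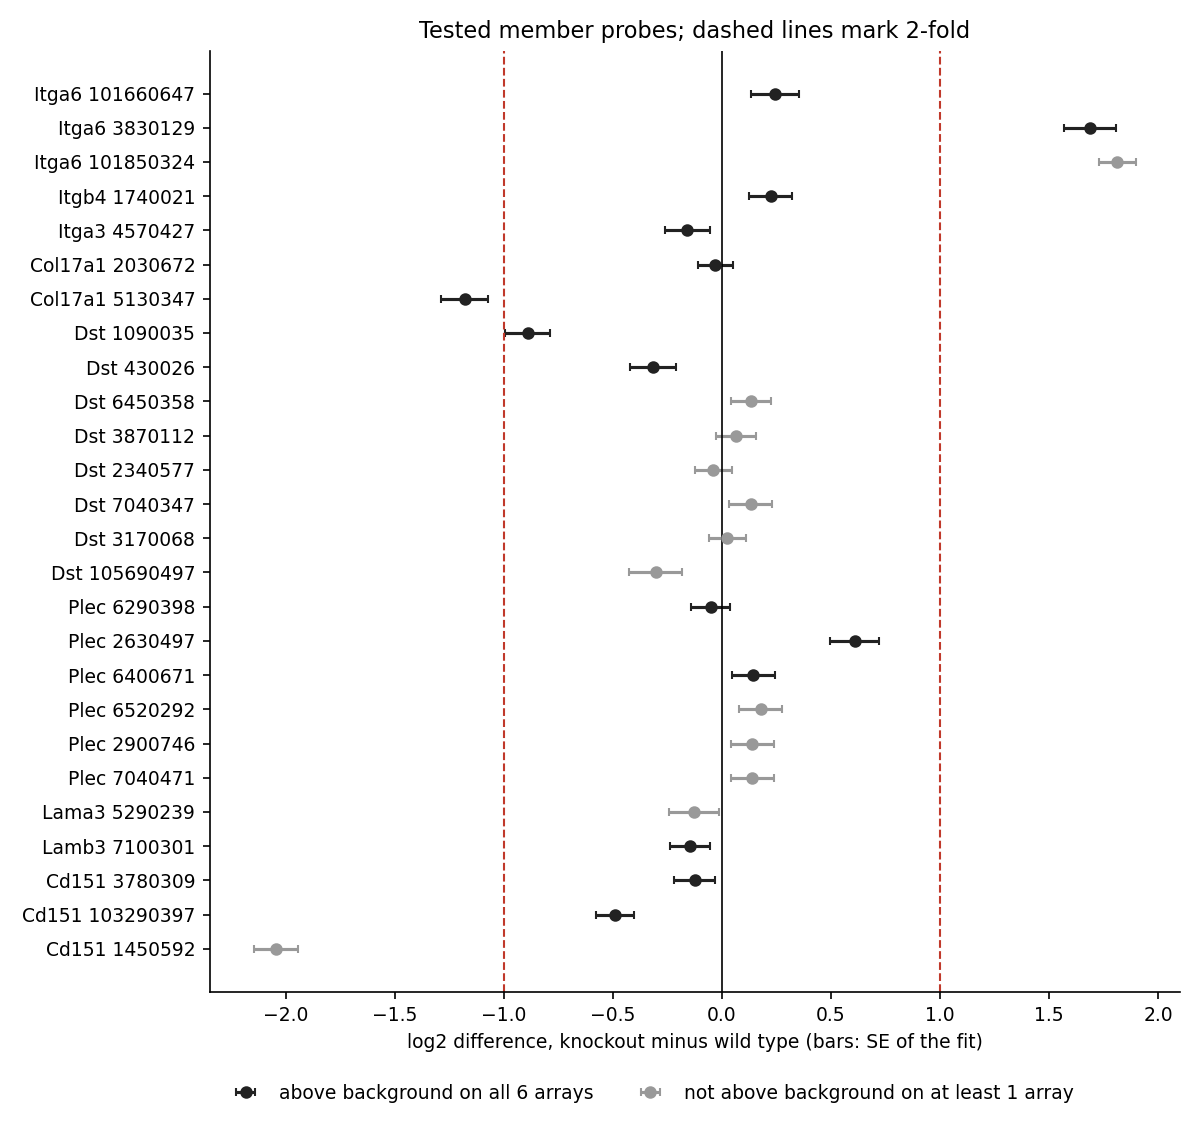
Log2 difference (knockout minus wild type) of the 26 tested member probes, one row per probe, with the SE of the limma fit as bars. Black points were above background on all 6 arrays and grey points were not. Outside the dashed 2-fold lines lie a pair of Itga6 probes on the right and 1 probe each of Col17a1 and Cd151 on the left, the Cd151 point resting on knockout values at background.

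**Figure D2:**
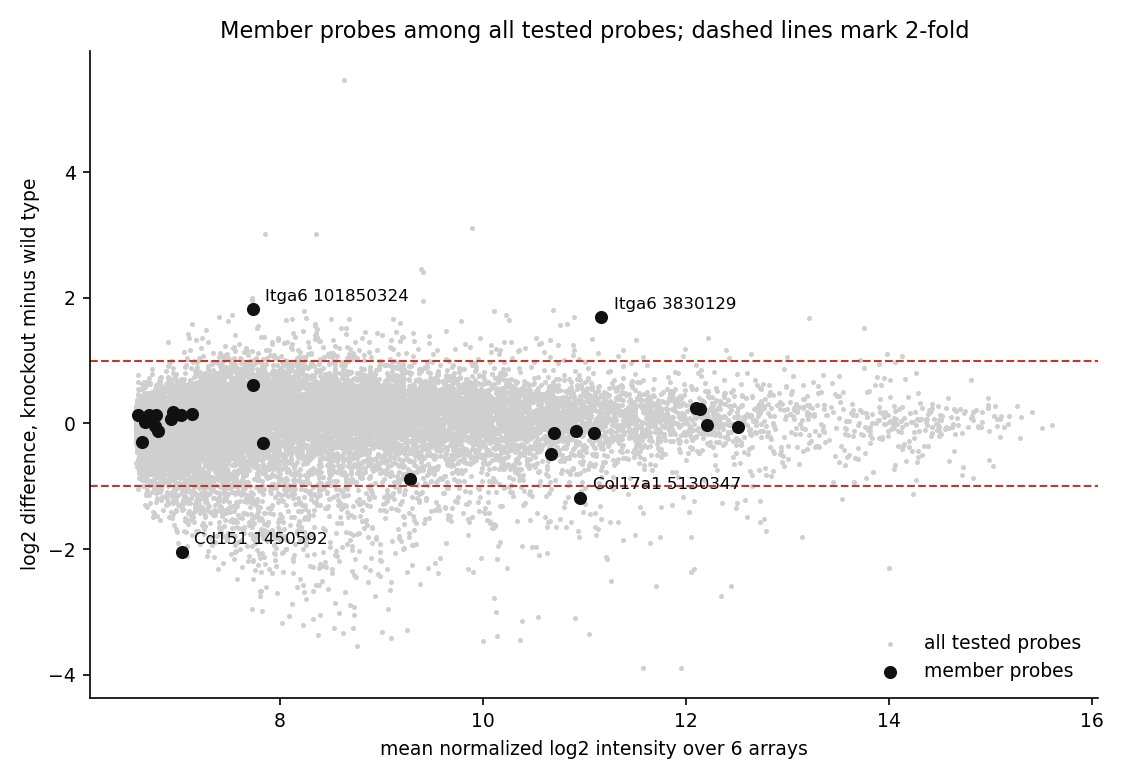
Each tested probe by its mean normalized log2 intensity (horizontal axis) and its log2 difference, knockout minus wild type (vertical axis), with member probes in black over all 23058 tested probes in grey. The brightest member probes lie near 0, and the 4 named probes lie outside the dashed 2-fold lines.

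Itga6 encodes the α6 chain, which pairs with β4 in hemidesmosomes and with β1 elsewhere. Its 4 probes did not move together. Probe 3830129 read 4078.9, 3739.9 and 3980.1 on the knockout arrays, against 1302.4, 1394.9 and 1558.5 on the wild-type arrays. Every knockout array lay above every wild-type array, and the probe rose 3.22-fold (log2 difference 1.69, SE 0.12, limma adjusted p = 3.4e-07). In the authors' normalized log2 values it read 11.93, 11.88 and 12.27 on the knockout arrays and 10.26, 10.32 and 10.56 on the wild-type arrays.

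The brightest Itga6 probe, 101660647, is annotated to the same transcript, NM_008397. It read 5150.3, 4159.1 and 4358.7 on the knockout arrays and 4143.8, 4994.0 and 3912.4 on the wild-type arrays. These ranges overlap, and the log2 difference was 0.24 (SE 0.11, limma adjusted p = 0.104). Probe 101850324, annotated to the cDNA clone AK018033, read 427.2, 414.1 and 330.7 on the knockout arrays and 170.9, 151.1 and 161.8 on the wild-type arrays. It rose without overlap (log2 difference 1.81, SE 0.08, limma adjusted p = 1.22e-08), but only 1 of the 3 wild-type arrays was above background. The size of the rise moved with the background correction: the log2 difference ran from 1.42 on the authors' scale to 2.66 with the background mode subtracted. The remaining probe, 105270008, was above background on no array and was not tested.

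Itgb4 encodes the β4 chain, whose long cytoplasmic tail binds plectin and which pairs with α6 alone. Its single probe, 1740021, read 5222.1, 5513.1 and 3413.2 on the knockout arrays and 4413.7, 4440.4 and 4552.1 on the wild-type arrays. The knockout arrays spread on both sides of the wild-type arrays, with knockout array 3 the lowest of the 6. After normalization that array read 12.06 (log2) beside 12.27 and 12.43 on the other knockout arrays, and 12.01, 11.99 and 12.10 on the wild-type arrays. The log2 difference was 0.22 (SE 0.10, limma adjusted p = 0.0974).

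Itga3 encodes α3, the partner of β1 in the other laminin-332 receptor of keratinocytes. Its single probe, 4570427, read 1998.0, 1959.3 and 1978.7 on the knockout arrays and 2438.7, 2582.7 and 2458.5 on the wild-type arrays. The raw values did not overlap, but the normalized values did, and the log2 difference was -0.16 (SE 0.10, limma adjusted p = 0.262).

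Cd151 encodes a tetraspanin that associates with α3β1 and α6β4. Of its 3 probes, all annotated to NM_009842, the brightest (3780309) read 1956.1, 1704.4 and 1670.4 on the knockout arrays and 2128.7, 2187.4 and 2217.7 on the wild-type arrays, with a log2 difference of -0.13 (SE 0.09, limma adjusted p = 0.326). Probe 103290397 read 1499.5, 1450.5 and 1025.5 on the knockout arrays and 2112.0, 2213.4 and 1931.8 on the wild-type arrays. It was 1.40-fold lower without overlap (log2 difference -0.49, SE 0.09, limma adjusted p = 0.000643), under the 2-fold limit. The dimmest probe, 1450592, read 96.2, 101.4 and 81.3 on the knockout arrays and 364.9, 315.2 and 339.6 on the wild-type arrays. It was above background on every wild-type array and on no knockout array, so only a bound can be given: it was at least 2.06-fold lower in the knockout pool (limma adjusted p = 1.85e-08). The bound sets the wild-type mean against the lowest normalized signal that counts as above background on each knockout array.

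Col17a1 encodes collagen XVII, a transmembrane collagen also known as the bullous pemphigoid antigen BP180. Its probes disagree, although both are bright and annotated to NM_007732. Probe 5130347 read 1262.5, 1244.2 and 1264.6 on the knockout arrays and 3370.4, 3177.4 and 3203.4 on the wild-type arrays. It fell 2.27-fold (log2 difference -1.18, SE 0.11, limma adjusted p = 3.16e-06), with no overlap. Probe 2030672 read 4886.3, 4666.2 and 3847.2 on the knockout arrays and 4811.1, 5322.9 and 5250.4 on the wild-type arrays. Its normalized values overlap, and its log2 difference was -0.03 (SE 0.08, limma adjusted p = 0.797). The authors' log2 values gave differences of -1.15 for 5130347 and -0.03 for 2030672.

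**Figure D3:**
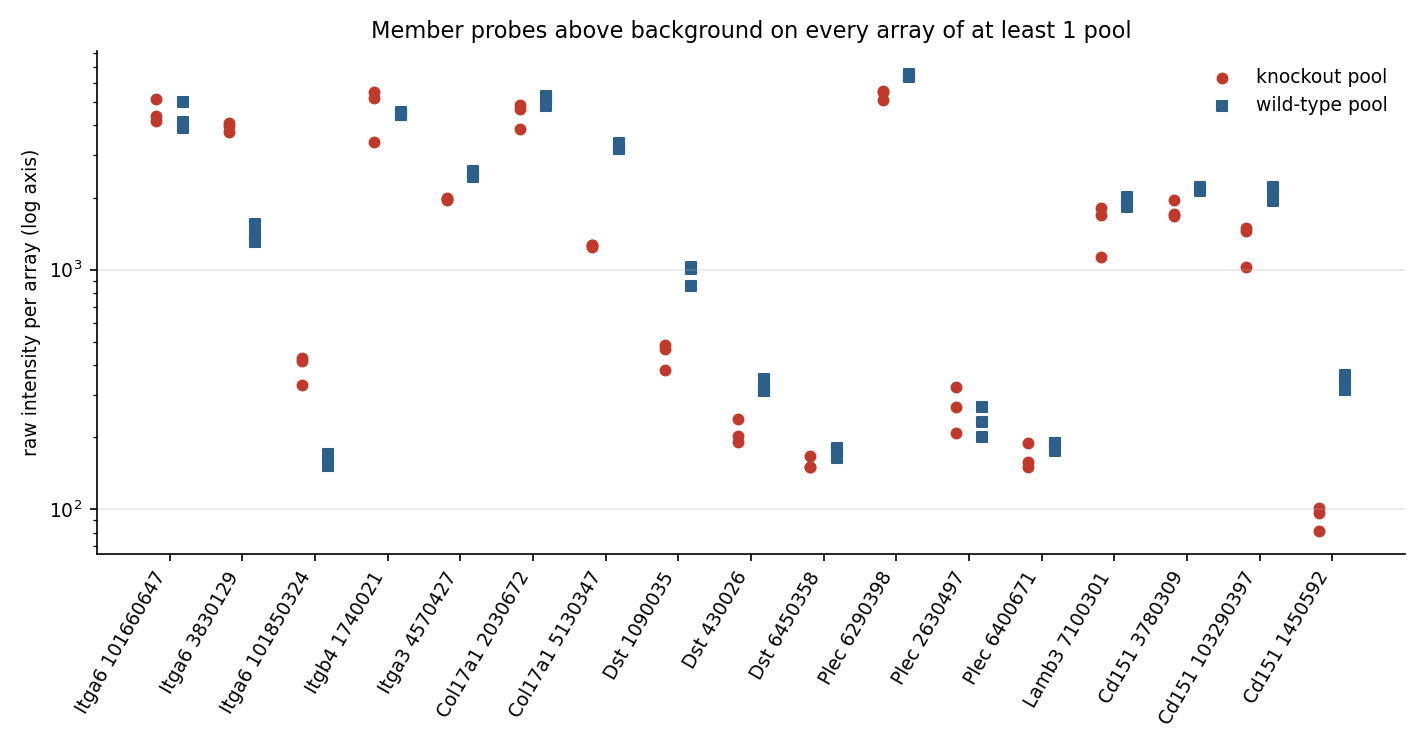
Raw intensity per array (log axis) of the 17 member probes above background on every array of at least 1 pool, with knockout arrays as red circles left of wild-type arrays as blue squares. Itga6 probes 3830129 and 101850324 are higher on the knockout arrays, while Col17a1 5130347, Cd151 1450592 and Dst 1090035 are lower there, and brighter probes of Itga6, Col17a1 and Cd151 lie much closer together.

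The disagreement between probes of a gene is described within arrays, as the log2 difference between a probe past the threshold and a disagreeing tested probe of the same gene. A probe disagreed if its own difference between pools was within 0.25 or of the other sign. It also had to be above background on all arrays of the pool where it was brighter. In every member pair the disagreeing probe was within 0.25. The pairs were chosen for that disagreement from the same 6 arrays, so a shift between pools is built into the choice and no p is given. The difference between probes has no meaning as a level, and only its shift between pools was compared. For Itga6, probe 3830129 minus probe 101660647 was -0.34, -0.16 and -0.14 on the knockout arrays and -1.73, -1.90 and -1.35 on the wild-type arrays, a shift of 1.44. For Itga6 probe 101850324 against the same probe the shift was 1.57, with 1 of 3 wild-type arrays above background. For Col17a1, probe 5130347 minus probe 2030672 averaged -1.82 ± 0.19 on the knockout arrays and -0.67 ± 0.11 on the wild-type arrays (SD, n = 3 each), a shift of -1.15. For Cd151, probe 1450592 disagrees with probe 3780309 in the same way, but no size is given because its knockout values lie at background. Of the 5 member genes with at least 2 tested probes, 3 had a probe past the threshold, and all 3 had a disagreeing probe. For Itga6 this hangs on the limit: probe 101660647 was at 0.24, of the same sign, just inside 0.25. With arrays left out in turn it ran from 0.16 to 0.35. Across the array, 540 of 3662 such genes (14.7%) had a probe past the threshold, and 318 of the 540 (58.9%) had one that disagreed by the same rule. The positions of the probes in their transcripts were not analysed here.

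**Figure D4:**
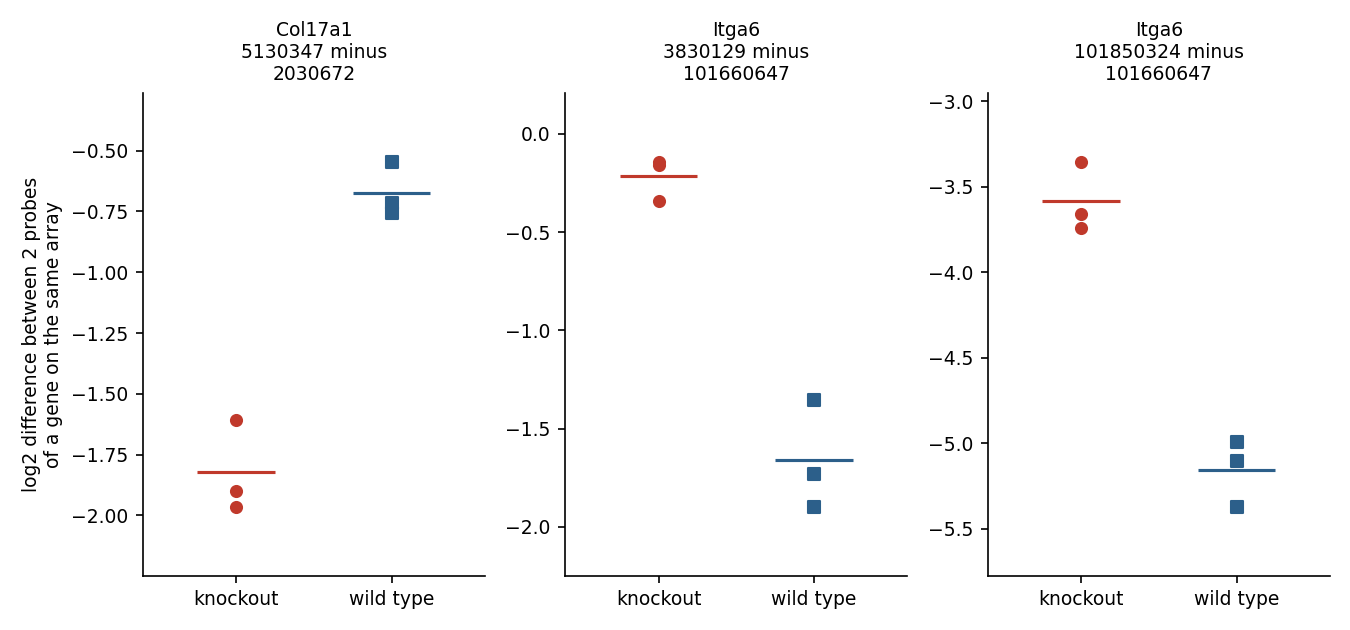
Log2 difference between 2 probes of a gene on the same array, for the 3 knockout arrays (red circles) and the 3 wild-type arrays (blue squares), with lines at the means; each panel has its own vertical scale. Both Itga6 panels lie higher in the knockout pool and the Col17a1 panel lies lower, as the choice of pairs fixes.

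Dst encodes dystonin, a plakin made in an epithelial form, BP230, which links collagen XVII and β4 to keratin, and in longer forms of nerve and muscle. It had 11 probes, annotated to 5 transcripts or clones, of which 8 were tested and 0 passed the threshold in limma. At an unadjusted p under 0.05 in limma, 0 were higher and 3 lower, where at least 20.9% and 17.6% of all tested probes were. The brightest, 1090035 (NM_010081), read 486.3, 468.7 and 381.3 on the knockout arrays and 1010.3, 853.9 and 1029.6 on the wild-type arrays. It was 1.86-fold lower without overlap (log2 difference -0.89, SE 0.10, limma adjusted p = 2.18e-05) and so just short of the 2-fold limit. It passed the limit without wild-type array 2 (-1.01). Probe 430026 (NM_133833) read 237.8, 191.0 and 202.6 on the knockout arrays and 318.9, 349.0 and 311.9 on the wild-type arrays, with a log2 difference of -0.32 (SE 0.11, limma adjusted p = 0.0313). The other 9 probes read between 72.3 and 186.7 on all arrays, 6 of them above background on no array, and the 6 that were tested had log2 differences from -0.30 to 0.13.

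Plec encodes plectin, the other hemidesmosomal plakin, which binds β4 and keratins and has many alternative first exons. Its 12 probes are annotated to 10 transcripts, and only 3 were above background on all 6 arrays. The brightest, 6290398 (NM_011117), read 5548.5, 5520.9 and 5093.4 on the knockout arrays and 6348.2, 6435.1 and 6581.3 on the wild-type arrays. Raw values were lower on the knockout arrays, normalized values overlapped, and the log2 difference was -0.05 (SE 0.09, limma adjusted p = 0.692). Probe 2630497, annotated to the same transcript but dim, read 325.5, 267.4 and 208.9 on the knockout arrays and 230.7, 200.6 and 266.6 on the wild-type arrays. Its raw ranges overlap and its normalized ranges do not, with a log2 difference of 0.61 (SE 0.11, limma adjusted p = 0.000879), under the 2-fold limit. Probe 6400671 (NM_201388) lay just above background, at a log2 difference of 0.14. The other 9 probes read between 85.0 and 172.4. Of these, 8 were above background on no array, and the remaining one, 6520292, also annotated to NM_011117, was above it on 2 knockout arrays and 1 wild-type array.

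Lamb3 and Lama3 encode the β3 and α3 chains of laminin-332, the ligand that joins hemidesmosomes to the basement membrane. Lamb3 (probe 7100301) read 1811.3, 1696.9 and 1134.7 on the knockout arrays and 1829.0, 2003.3 and 1875.3 on the wild-type arrays. Knockout array 3 was the lowest, the normalized values overlap, and the log2 difference was -0.15 (SE 0.09, limma adjusted p = 0.25). The single Lama3 probe (5290239) read 141.1, 120.1 and 134.5 on the knockout arrays and 165.7, 162.5 and 165.6 on the wild-type arrays. Only 1 wild-type array, and no knockout array, exceeded background, so a Lama3 difference was not detectable (log2 difference -0.13, limma adjusted p = 0.428).

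Atf2 encodes a factor that binds the ATF/CREB site TGACGTCA, of which TGACG is the core of one side, and that can pair with Jun. The AP-1 site TGACTCA, which has similar letters, was counted beside it and is not taken as a site of Atf2. Other variants of the ATF/CREB site were not searched. The RefSeq promoter table (GRCm38.p6) held 9 starts of 5 of the 9 genes (Itga3, Cd151, Col17a1, Dst and Lamb3), and the 250 bases before each start were searched on both strands. TGACGTCA was in 0 of the 9 and in 1.55% of 32851 promoters, and TGACTCA was in 0 of the 9 and in 4.46% of all promoters. TGACG was in 2 of the 9 and in 17.8% of all promoters; it is part of TGACGTCA. The windows of Col17a1 and Cd151, which had a lower probe, and the Dst window with a TGACG are shown 5′ to 3′ on the gene's strand, with TGACG, or CGTCA where it lies on the other strand, in capitals.
Col17a1, chr19:47692043-47692292, minus strand: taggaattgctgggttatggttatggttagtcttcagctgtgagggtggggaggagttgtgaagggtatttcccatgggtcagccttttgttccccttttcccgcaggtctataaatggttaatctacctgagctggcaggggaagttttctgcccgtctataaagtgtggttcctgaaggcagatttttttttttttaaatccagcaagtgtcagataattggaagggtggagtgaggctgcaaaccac
Cd151 first start, chr7:141467112-141467361, plus strand: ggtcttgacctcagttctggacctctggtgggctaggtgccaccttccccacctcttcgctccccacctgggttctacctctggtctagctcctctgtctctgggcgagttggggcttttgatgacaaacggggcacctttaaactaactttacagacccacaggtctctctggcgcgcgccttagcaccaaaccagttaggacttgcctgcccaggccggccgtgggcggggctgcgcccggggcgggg
Cd151 second start, chr7:141468539-141468788, plus strand: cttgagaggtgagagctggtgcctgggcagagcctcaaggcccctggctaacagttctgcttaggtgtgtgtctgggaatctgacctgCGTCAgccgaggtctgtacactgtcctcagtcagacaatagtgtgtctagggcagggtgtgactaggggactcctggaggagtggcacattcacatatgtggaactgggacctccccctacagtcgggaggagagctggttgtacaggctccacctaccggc
Dst second start, chr1:34160010-34160259, plus strand: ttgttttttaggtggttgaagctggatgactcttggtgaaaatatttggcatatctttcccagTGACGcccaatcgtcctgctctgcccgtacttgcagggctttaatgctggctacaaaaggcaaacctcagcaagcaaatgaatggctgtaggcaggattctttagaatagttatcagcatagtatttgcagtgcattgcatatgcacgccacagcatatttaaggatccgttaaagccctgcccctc
The matches begin 162 bases before the second Cd151 start and 187 bases before the second Dst start. They describe letters in these windows and do not show binding.

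Genes of the members' families, and of basement membrane, focal adhesion, basal keratins and laminin-332 processing, were taken from 8 lists of 80 genes. Not all of them act at hemidesmosomes. Of the 80 genes, 69 were tested on 90 probes. Of the 90 probes, 1 was higher past the threshold (1.11%, against 0.984% of all tested probes) and 5 were lower (5.56%, against 3.90%), with a median log2 difference of -0.03. In 4 of the lists 0 probes passed in limma. At an unadjusted p under 0.05 in limma, 2 were higher and 2 lower of 8 probes of laminin chains, and 2 and 5 of 21 for basement membrane. The counts were 2 and 3 of 12 for integrins, and 3 and 1 of 6 for plakins. At least 20.9% of all tested probes were higher and 17.6% lower at that limit. Among 7 tested genes of other laminin chains, log2 differences on 8 probes ran from -0.64 (Lamb1) to 0.51 (Lamb2), and the brightest, Lamc1, was at 0.07. Among 15 basement membrane and anchoring genes on 21 probes they ran from -0.76 to 0.78. The lowest was a dim probe of Col7a1, the collagen of anchoring fibrils, whose bright probe was at 0.09, and the highest was 1 of 5 tested probes of Grip1, the others of which were at -0.13 to 0.19. The brightest gene of that list, Col18a1, was at -0.03. Among 8 other integrin genes on 12 probes, Itgb1, the β1 partner of α3 and α6, was brightest and stood at 0.10 (limma adjusted p = 0.39). Among 5 other plakin genes the brightest, Evpl (envoplakin), was at 0.25 (SE 0.08, limma adjusted p = 0.0182), under the 2-fold limit.

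Integrin activation and focal adhesion genes had 1 probe past the threshold among 12 of 10 genes. Ilk, integrin-linked kinase, was above background on every wild-type array and on no knockout array. With the main background correction it was at least 2.04-fold lower (limma adjusted p = 5e-07). Neither this bound nor the call holds in the authors' log2 values, where the difference was -0.87. Fermt1, which encodes kindlin-1, the integrin activator lost in Kindler syndrome, was at -0.93 (SE 0.09, limma adjusted p = 5.06e-06), under the limit. Among 13 other tetraspanin genes on 15 probes, 2 fell: Cd9, which also associates with integrins, averaged 3499 in the knockout pool and 9872 in the wild-type pool (log2 difference -1.35, SE 0.09, limma adjusted p = 2.52e-07), and Tspan3 fell on 1 of its 2 probes (-2.90, with -0.06 on the other). Cd81, the brightest tetraspanin gene, was at 0.14.

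The basal keratins Krt5 and Krt14, which plakins anchor at hemidesmosomes, were at 0.14 (limma adjusted p = 0.188) and -0.07 (adjusted p = 0.477). In the same list of 5 genes Krt15 rose (3.12), Sfn fell (-1.85), and the bright probe of Trp63, the p63 gene of basal cells, was at 0.40. Among 6 tested genes of proteases that cut laminin-332 chains or activate such proteases, 1 fell, Plat (-1.23). Bmp1, which encodes a procollagen and laminin protease, was at -0.80 on one probe and 0.08 on another, both above background on all 6 arrays.

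**Figure D5:**
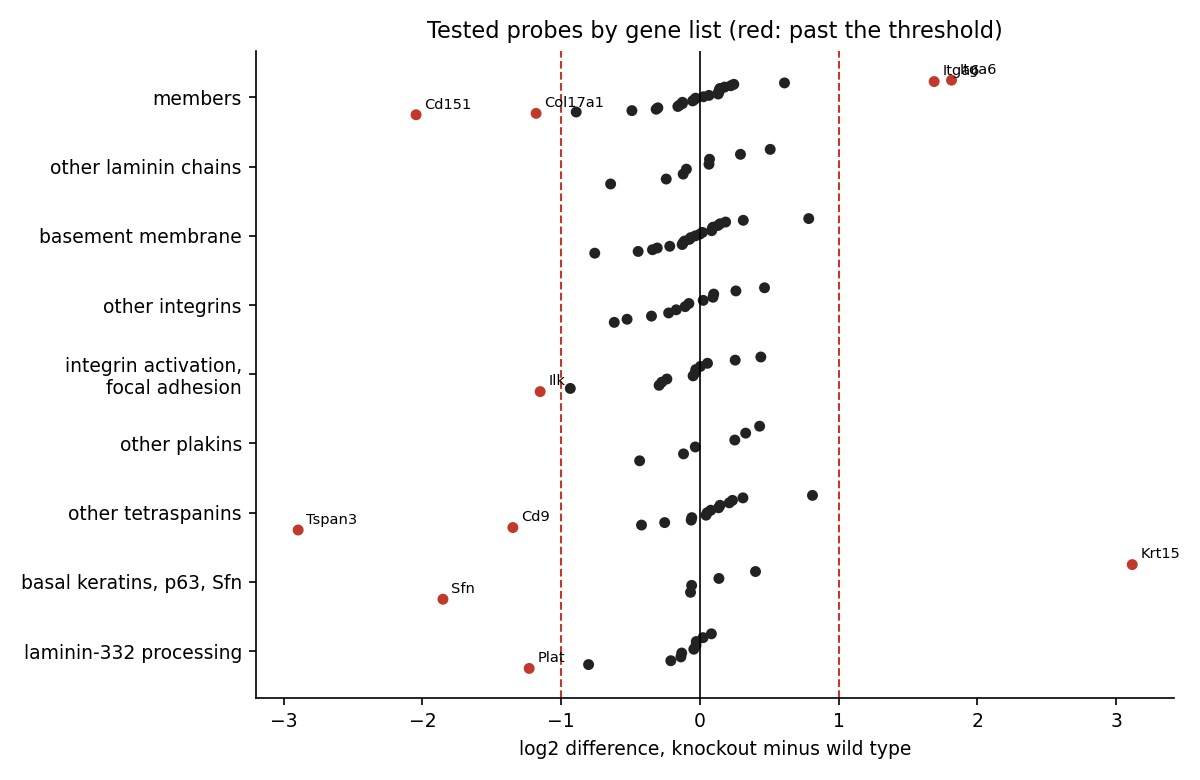
Log2 difference (knockout minus wild type) of each tested probe, by gene list, with probes past the threshold in red and named. Most probes of each list lie between the dashed 2-fold lines; those past them are named, and most of these lie on the left.

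The 6 array values of Itgb4 and Lamb3, each centred on its mean, were set against 9664 named probes above background on all 6 arrays by Euclidean distance. The genes closest to Itgb4 were Nsmce1, Nfic and Dym, at distances of 0.035, 0.043 and 0.044 (log2). Those closest to Lamb3 were Eps8l1, Tax1bp3 and E2f3, at 0.075, 0.077 and 0.078. These distances cover 6 arrays of 2 pools.

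Marker lists of the cells a tumour can hold are given beside these values. Their summed raw intensities include the background of each array and were lower on the knockout arrays, which were dimmer as a whole. Over all tested probes, 0.984% were higher past the threshold and 3.90% lower. Keratinocyte markers were bright on all arrays (summed raw intensity of 11 probes 115951.5 to 140992.6 on the knockout arrays and 166729.8 to 170177.0 on the wild-type arrays), with 1 of 10 tested probes higher (Krt10) and 2 lower (of 3 for Krt6a). Fibroblast markers summed to 4075.4 to 5442.0 on the knockout arrays and 9997.4 to 10752.5 on the wild-type arrays. Of their 12 tested probes 0 were higher and 4 lower (of Lum, Dcn, Col1a1 and Col3a1). Log2 differences of the 12 ran from -2.01 to -0.06, with a median of -0.76. On the brightest tested probe of each gene, 3 of 7 genes were lower. Endothelial markers, from cells that also make α6, summed to 2145.6 to 2910.0 on the knockout arrays and 3490.1 to 3615.4 on the wild-type arrays. Of their 7 tested probes 0 passed the threshold, with log2 differences from -0.91 (Pecam1, whose other tested probe was at 0.10) to 0.20 (Egfl7). The brightest gene, Emcn, ran from -0.51 to -0.39 under the alternative settings described below. Skeletal muscle markers, from cells that also make plectin and dystonin, summed to 1100.3 to 1766.7 on the knockout arrays and 2801.3 to 3023.1 on the wild-type arrays. Their 6 tested probes had log2 differences from -1.10 to -0.12, with 0 higher past the threshold and 2 lower (Acta1 and Myl1). Both calls were lost under alternatives: Myl1 was at -0.77 in the authors' log2 values, and Acta1 at -0.95 without knockout array 3. Schwann cell markers, from cells that also make α6β4, summed to 1210.6 to 1521.7 on the knockout arrays and 1566.2 to 1671.1 on the wild-type arrays, with 0 of 5 tested probes past the threshold. Mbp, the brightest gene of that list, ran from 0.18 to 0.28 under the alternative settings. Leukocyte markers summed to 1435.8 to 1932.2 on the knockout arrays and 2380.3 to 2477.7 on the wild-type arrays, with 1 of 5 tested probes lower (of Lyz2, whose other tested probe was at 0.10). Probes above background on no array numbered 1 of 11 for keratinocytes, 5 of 15 for fibroblasts, 7 of 13 for endothelium, 1 of 8 for muscle, 2 of 7 for Schwann cells and 5 of 9 for leukocytes. The part of these cells in the differences of the member genes was not tested.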

How the data were processed

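Total RNA of each pool was labelled with Cy3 and hybridised to 3 arrays of 1 chip, with the knockout and wild-type pools in different positions, so that position and genotype cannot be told apart. Per the file headers, the values deposited for an array are raw intensities, 1 to a probe, with no detection p. The authors also deposited log2 values of the same arrays, in which the columns share 1 distribution and keep each array's rank order, by a method not given in the sources used here. The submitters' processing notes list BeadStudio 3.

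Raw intensities were corrected with limma's normexp (offset 50), converted to log2 and quantile-normalized. The 23058 probes with a mean above the median of all 46116 were fitted in limma 3.58.1 under R 4.3.3, by lmFit and by eBayes with its trend option. The pipeline was tested on simulated data. Background was each array's mode plus 3 SDs of the values below it, a rule set after the data had been seen. A fold against a pool with no array above background is a bound. Symbols came from the platform annotation (29534 probes with 1 symbol, 11 with several, 16571 with none or not listed); of 29476 looked up by Entrez identifier, 0 changed. Every member probe is reported. From each list the genes past the threshold, up to 4, were named, or otherwise the brightest; further list members given with values (Lamb1, Lamb2, Col7a1, Grip1, Fermt1, Krt5, Krt14, Trp63, Bmp1, Cd81, Pecam1 and Egfl7) were chosen after their values were seen. The members and lists were chosen with earlier results of these data known. Depth has no counterpart here: the number of arrays limits precision.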

Additional observations from a re-analysis of the deposited data

How the results depend on the processing

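Background correction, normalization, the filter on dim probes, the variance model and the arrays used were varied. The 4 member probes past the threshold stayed past it under every alternative that tested them, with log2 differences of 1.56 to 1.78 and 1.42 to 2.66 for Itga6 probes 3830129 and 101850324, and -1.30 to -1.10 for Col17a1 5130347. No range is given for Cd151 1450592, whose knockout values lie at background. With only probes above background on all 6 arrays, 14 member probes were left and 2 passed, 1 higher and 1 lower, since Itga6 101850324 and Cd151 1450592 were then not tested. When the background mode was subtracted from each array, with values floored at 50, an alternative chosen after seeing the data, 6 passed, 3 higher and 3 lower, by the addition of Plec 2630497 (1.03) and Dst 1090035 (-1.03). Leaving out each array in turn gave 4 to 5 probes, 2 to 2 of them higher and 2 to 3 lower, with Dst 1090035 (-1.01) added without wild-type array 2. The replicate numbers do not pair the arrays (correlation of deviations 0.11, -0.13 and 0.04), and with the replicate block 4 probes passed, 2 higher and 2 lower.

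Signs turned in values near 0. With scaling to the 75th percentile, Col17a1 2030672 was at 0.0493, Col18a1 at 0.0509 and Dst 2340577 at 0.0821, and with the mode subtracted Dst 3870112 was at -0.0195. Over the arrays left out in turn, Dst 2340577 ran from -0.0787 to 0.0101 (above 0 without knockout array 1 or wild-type array 1), Dst 3170068 from -0.0126 to 0.0711 (below 0 without knockout array 1 or wild-type array 2) and Col18a1 from -0.0850 to 0.000899 (above 0 without knockout array 1). Ilk was under 2-fold with an offset of 100 (-0.89), without background correction (-0.96) and with the authors' values (-0.87), and so was Myl1 (-0.79, -0.86 and -0.77), while Acta1 was at -0.95 without knockout array 3. Over all tested probes, 227 were higher and 899 lower. These counts were 137 and 611 on the authors' scale, 142 and 633 at offset 100, 389 and 1259 at offset 16, and 728 and 1293 with the mode subtracted. They were 185 and 471 when each probe had to exceed background on all 6 arrays. The causes were not tested.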
